A study of Mus musculus with 16 samples.

Results

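The calcium/calmodulin-dependent protein kinase (CaM kinase) family was followed across the cell classes of the mouse dentate gyrus (DG) as 10 genes, taken by symbol from the 32285 genes of each RNA matrix. They are the kinase kinases *Camkk1* and *Camkk2*, the kinases *Camk1*, *Camk1d*, *Camk1g* and *Camk4*, the subunit genes *Camk2a*, *Camk2b* and *Camk2d*, and the inhibitor gene *Camk2n1*. Nuclei came from the DG of 4 wild-type mice (WT, labelled VV) and 4 mice homozygous for the V321L missense variant of *Nrg1* (labelled LL), with 2 females and 2 males per genotype. The variant lies in the transmembrane domain of neuregulin 1, is constitutive, and impairs the release of the protein's intracellular domain to the nucleus. Each mouse gave 1 Multiome library, which reads RNA and open chromatin from the same frozen nuclei, and the age of these mice is not in the labels.

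CaM kinases read a rise in calcium. Calcium loads calmodulin, calcium-calmodulin opens the kinases, and CaMKK1 and CaMKK2 then phosphorylate CaMKI and CaMKIV at the activation loop, which makes up the CaM kinase cascade. CaMKIV is mostly nuclear in neurons and phosphorylates CREB and its coactivator CBP, CaMKI acts in the cytoplasm on axon and dendrite growth, and CaMKII forms large holoenzymes of alpha, beta, gamma and delta subunits that hold their activity at hippocampal synapses after calcium has fallen.

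After filtering and removal of doublets, 16360 nuclei remained, and 11946 of them were assigned to a class by a gate on marker genes, none of which is a CaM kinase gene. Granule cells (GCs) made up 7991 gated nuclei, and 97.1% of them lay in clusters whose markers were also those of GCs. WT libraries held 4326426 to 14624265 UMIs and V321L libraries 15505354 to 23582057. The median GC of a WT mouse had 1180 to 2273 UMIs and that of a V321L mouse 3348 to 4779, so the genotypes did not overlap in depth. The median mitochondrial share of GCs was 0.0601% to 0.124% in WT mice, against 0.298% to 1.08% in V321L mice. Depth, mitochondrial share and genotype therefore cannot be told apart in these libraries. Levels are given as CPM, the count of UMIs of a gene per 1000000 UMIs of the class in that mouse, and they compare 1 gene between samples and not different genes with each other.

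The family was spread over the classes in different ways, and the members of 1 subfamily did not share a pattern. In V321L mice, where all 7 classes had at least 20 nuclei in 4 of 4 mice, *Camkk1*, *Camk2a*, *Camk2b* and *Camk2n1* had their highest mean in GCs, *Camk4*, *Camk1d* and *Camk1g* in the other excitatory neurons (CA fields and mossy cells), and *Camk1*, *Camk2d* and *Camkk2* in microglia.

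Among the kinase kinases, *Camkk1* lay at 66.0 ± 18.2 CPM (SD, n = 4) in V321L GCs and at 43.7 ± 12.1 CPM in other excitatory neurons, and these overlapped between mice. In oligodendrocytes *Camkk1* was almost absent, with 1 UMI among 735241 in 4 V321L mice and 0 among 164906 in 3 WT mice. *Camkk2* lay at 113 ± 28.8 CPM in microglia, 112 ± 11.5 CPM in other excitatory neurons and 70.3 ± 3.23 CPM in GCs. The GC range of *Camkk2*, 67.7 to 74.8 CPM, lay below every mouse of the other excitatory neurons and above every mouse of the GABAergic neurons, at 50.7 ± 16.8 CPM. In WT mice the GC range of *Camkk2*, 26.9 to 34.7 CPM, overlapped with both. Other excitatory neurons ran from 28.5 to 56.2 CPM there and GABAergic neurons from 7.94 to 33.4 CPM.

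The kinases downstream of them split into those highest in other excitatory neurons and *Camk1*. *Camk4* reached 235 ± 53.2 CPM in other excitatory neurons, with no overlap to the next class, against 93.8 ± 30.2 CPM in GABAergic neurons and 45.8 ± 8.16 CPM in GCs. *Camk4* was lowest in astrocytes, at 19.1 ± 7.19 CPM, and oligodendrocytes, at 18.1 ± 13.4 CPM, which overlapped. In WT mice *Camk4* was also highest in other excitatory neurons without overlap, at 310 ± 17.5 CPM. There GCs, at 94.5 ± 18.4 CPM, and GABAergic neurons, at 77.3 ± 60.1 CPM, overlapped. In V321L mice *Camk1d* was at 642 ± 150 CPM in other excitatory neurons and at 610 ± 92.6 CPM in microglia, which overlapped, and at 334 ± 27.7 CPM in GCs, below every mouse of both.

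*Camk1* ran from 302 ± 30.8 CPM in microglia, 113 ± 33.4 CPM in oligodendrocyte precursors (OPCs), 64.6 ± 14.2 CPM in GABAergic neurons down to 8.53 ± 2.25 CPM in GCs, the lowest class. Neither the microglia nor the OPCs overlapped with the class next below. In WT mice the order could be read in 4 classes only, and *Camk1* was again lowest in GCs, at 0.897 ± 0.932 CPM, from 12 UMIs in all. *Camk1g* was close to the detection limit everywhere, with 11.1 ± 5.39 CPM in other excitatory neurons and 9.83 ± 6.61 CPM in GABAergic neurons of V321L mice, and 3 UMIs in V321L GCs.

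Of the CaMKII genes, *Camk2a* (alpha) and *Camk2b* (beta) were highest in the excitatory neurons of V321L mice. *Camk2a* lay at 855 ± 63.5 CPM in V321L GCs and 754 ± 184 CPM in other excitatory neurons, which overlapped, and the other classes had lower means. In WT mice *Camk2a* was at 499 ± 295 CPM in astrocytes, 492 ± 112 CPM in GCs and 399 ± 91.9 CPM in other excitatory neurons, which all overlapped. In V321L mice *Camk2b* lay at 535 ± 57.4 CPM in GCs and 304 ± 94.4 CPM in other excitatory neurons, without overlap. In WT mice *Camk2b* was at 311 ± 108 CPM in GCs and 178 ± 38.5 CPM in other excitatory neurons, which overlapped. *Camk2d* (delta) was the reverse of both genes in V321L mice, at 410 ± 32.3 CPM in microglia, 190 ± 43.6 CPM in GABAergic neurons and 178 ± 23.3 CPM in astrocytes. GCs were its lowest class in both genotypes, at 21.7 ± 5.53 CPM in V321L and 20.9 ± 1.20 CPM in WT mice, below every mouse of every other class with 4 mice. *Camk2n1*, which encodes a protein inhibitor of CaMKII, differed least in V321L mice, from 109 ± 75.2 CPM in OPCs to 239 ± 74.5 CPM in GCs, and every class overlapped with the next. In WT mice it ran from 51.3 ± 34.3 CPM in GABAergic neurons to 198 ± 76.2 CPM in astrocytes, and *Camkk2*, *Camk2a* and *Camk1d* had smaller ratios of the highest to the lowest class.

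**Figure D1:**
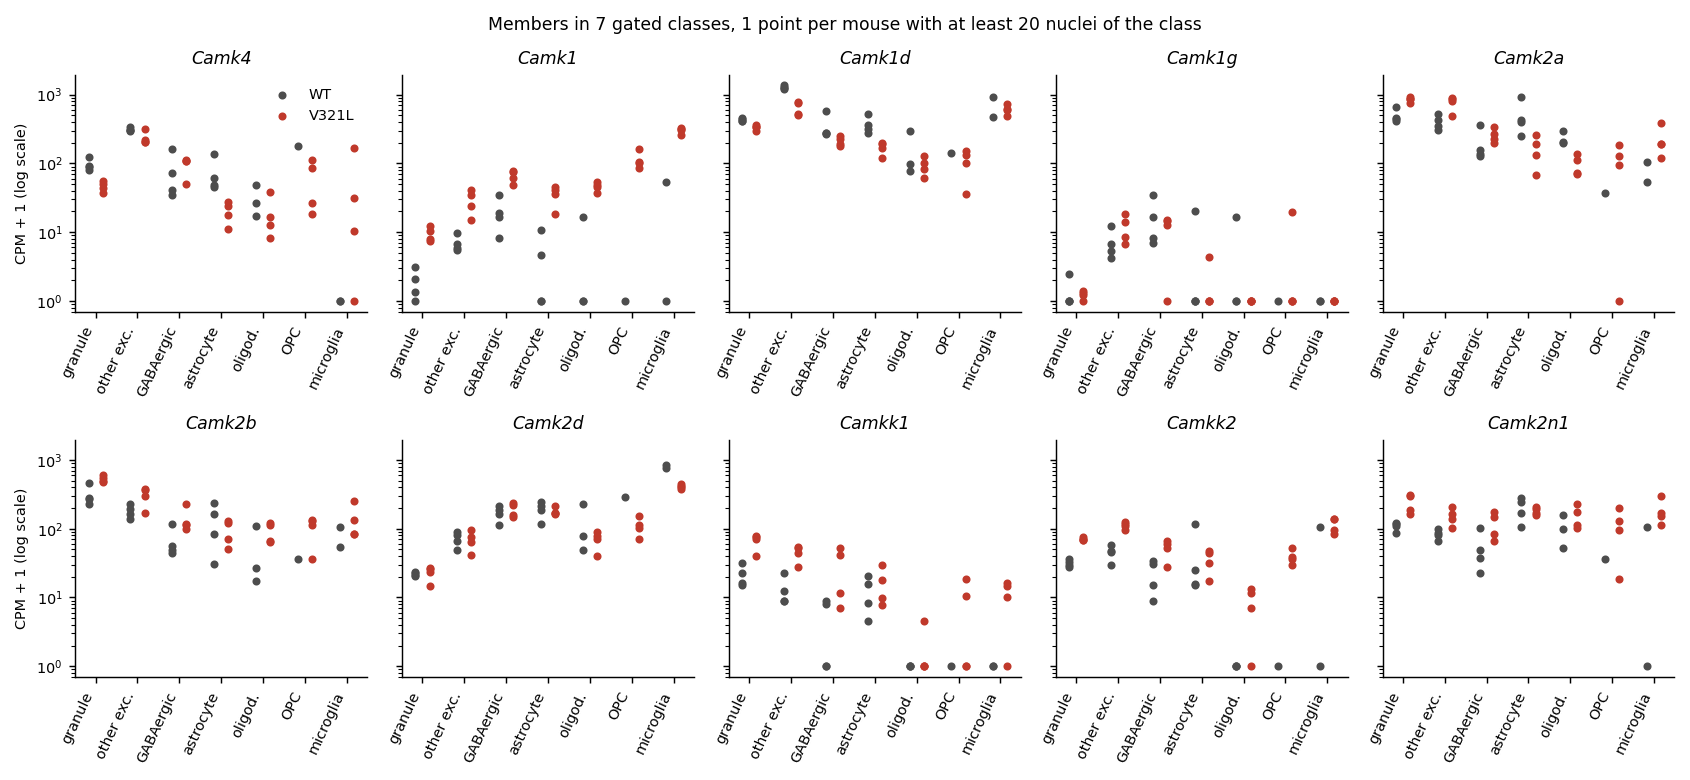
CPM + 1 on a log axis for the 10 genes in 7 gated classes; each point is 1 mouse with at least 20 nuclei of the class, WT in grey and V321L in red. GCs are the lowest class for *Camk1* and *Camk2d* (8.53 and 21.7 CPM in V321L mice) and the highest for *Camk2b* (535 CPM in V321L mice).

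RNA free in the nuclei suspension adds to these levels. Barcodes with 1 to 100 UMIs were taken to hold free RNA and no nucleus, by their UMIs alone. They carried *Camk2a* at 2799 CPM and *Camk2n1* at 1614 CPM on average in WT libraries, and at 805 and 818 CPM in V321L libraries. The estimated share of free RNA was 3.62% to 11.3% in WT and 1.98% to 6.14% in V321L GCs, but 19.5% to 56.0% in WT and 11.0% to 27.1% in V321L astrocytes. The part of free RNA in the glial levels of *Camk2a* and *Camk2n1* was not tested here beyond a subtraction given with the genotype comparison. For *Camk2d* the free RNA stood at 50.3 CPM in WT and 12.9 CPM in V321L libraries, far below its level in microglia, astrocytes and GABAergic neurons.

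GCs were then set against each class within mice, with the UMIs of a class summed per mouse and mouse as a block, by edgeR's quasi-likelihood test over all genes (adjusted p under 0.05, Benjamini-Hochberg). Against other excitatory neurons 7 of 8 tested members differed, where 38.3% of all genes did. Lower in GCs were *Camk4* by -2.07 ± 0.16 (log2 difference ± SE, adjusted p = 3.4e-07, n = 8 mice), *Camk2d* by -1.74 ± 0.19 (8.6e-06), *Camk1d* by -1.28 ± 0.12 (1.4e-06) and *Camkk2* by -0.64 ± 0.10 (0.00028). *Camk2b*, *Camkk1* and *Camk2n1* were higher, by 0.79 ± 0.10, 0.56 ± 0.13 and 0.47 ± 0.10, and *Camk2a*, at 0.22 ± 0.09, did not pass (adjusted p = 0.070). In WT mice alone *Camkk1* was no longer past the threshold (0.65, adjusted p = 0.11) and *Camk2a* was (0.26, adjusted p = 0.022), as it also was without the library of V321L F1 or of V321L F2 (0.26 and 0.25). In nuclei thinned to 1000 UMIs *Camkk1* (0.58, adjusted p = 0.18) and *Camk2n1* (0.36, adjusted p = 0.076) did not pass.

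Against GABAergic neurons 6 of 8 members passed, where 38.4% of all genes did. One of them, *Camkk1*, reached the limit of the filter on low counts in 2 of 8 GABAergic libraries and in 7 of 8 of GCs, where it is higher, so its call is not used, and 5 of the other 7 members passed. *Camk2b* was higher in GCs by 2.13 ± 0.15, *Camk2a* by 1.67 ± 0.13, *Camk2n1* by 1.15 ± 0.16 and *Camk1d*, which was lower in GCs than in other excitatory neurons, by 0.58 ± 0.13. *Camk2d* was lower by -3.03 ± 0.17 (adjusted p = 1.3e-17), and *Camk4*, at -0.39 ± 0.23 (adjusted p = 0.18), and *Camkk2*, at 0.49 ± 0.23 (adjusted p = 0.092), did not pass.

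Against astrocytes 7 of 8 members differed, where 45.1% of all genes did, 6 of them higher in GCs and *Camk2d* lower by -3.13 ± 0.16 (adjusted p = 2.6e-11). In WT mice alone, a fit on 4 mice with shallower libraries, 3 of 8 members passed. Free RNA made up the largest shares of astrocyte UMIs in these mice. Which of the number of mice, depth and free RNA goes with the lower count was not tested. Without the V321L mice *Camk2d* was still lower, by -3.20, and *Camk2a* was at 0.23 (adjusted p = 0.40) in place of 1.29 ± 0.33. *Camkk2*, at 0.74 ± 0.27, also lost its call without V321L F1, F2 or M2 (0.68, 0.61 and 0.77).

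Against oligodendrocytes 9 of 9 members passed, where 43.7% of all genes did, but 3 of these calls are not used. *Camkk1* and *Camkk2* reached the filter's limit in 0 and 2 of 7 oligodendrocyte libraries and in all 7 of GCs, and *Camk1* in 2 of 7 GC libraries and 5 of 7 of oligodendrocytes. All 6 other members passed. *Camk2d* was lower in GCs by -1.71 ± 0.28, and *Camk2b* (2.63 ± 0.25), *Camk2a* (2.50 ± 0.27), *Camk1d* (1.90 ± 0.24) and *Camk4* (1.71 ± 0.34) were higher, from 7 mice. *Camk2n1*, at 0.58 ± 0.21, lost its call without V321L M2 (0.55, adjusted p = 0.055). Against OPCs 8 of 9 passed (all genes 25.8%, 5 mice), and 6 of 7 without *Camk1* and *Camkk1*, which reached the limit in 2 of 5 libraries of the class where they are lower. *Camk2d* was lower in GCs by -2.28 ± 0.36, and *Camk4*, at -0.14 ± 0.37, was short of the threshold. *Camkk2*, called there at 1.26 ± 0.48 from 10 UMIs in OPCs, lost its call without V321L F1, F2 or M1 (1.41, 1.23 and 1.27).

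Against microglia 6 of 9 passed, where 36.1% of all genes did, in 6 mice, and 5 of 8 without *Camk1*, which reached the limit in 2 of 6 GC libraries and 5 of 6 of microglia. The 5 include *Camkk1* (3.07), which reached the limit in 3 of 6 microglia libraries. *Camkk1* had 3 UMIs in V321L and 0 in WT microglia, so its call is a description only. *Camk2d* was lower in GCs by -3.95 ± 0.30 (adjusted p = 6.5e-37), also without each of the 6 mice in turn. For *Camk1* the levels given above stand as a description. *Camk4* passed only without V321L M1 (3.01, against 0.93 ± 0.44 with all mice), the mouse that held most of the *Camk4* UMIs of microglia, and *Camk2n1*, at 0.93 ± 0.36, lost its call without WT M2, V321L F1 or V321L F2 (0.76, 0.87 and 0.92).

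The chromatin of the same nuclei gave a second measurement of 7 members, those with a peak within 1 kb of a gene start in 8 of 8 libraries; *Camk1*, *Camk1g* and *Camk2n1* had one in 2, 3 and 6 libraries. ATAC levels at the start of *Camk2d*, as CPM of the ATAC counts, were 17.5 ± 7.04 in V321L GCs and 12.5 ± 4.99 in WT GCs, against 71.6 ± 19.1 and 47.7 ± 25.8 in astrocytes and 52.5 ± 23.0 and 63.5 ± 9.61 in GABAergic neurons. The promoters of *Camk2d*, *Camk2b* and *Camkk1* are shown because *Camk2d* was the member with lower RNA and lower accessibility in GCs than in every class tested for both but OPCs, *Camk2b* the member whose accessibility was most in excess in GCs over astrocytes, oligodendrocytes and microglia among those with a fold, and *Camkk1* a kinase kinase that was more accessible in GCs than in these 3 classes. The excess of *Camk2b* over these 3 classes rests on few counts in them, in astrocytes on those of the V321L mice, as given below. In WT mice, before TMM scaling, the mean of *Camkk1* in GCs was near that of astrocytes and below that of microglia, as also given below. All 3 promoters are RefSeq sequences of build GRCm38.p6, 250 bases before to 50 bases after a gene start. They are read along the gene's strand, with the GC box GGGCGG or its reverse complement in capitals. *Camk2d* lies at chr3:126596701-126597000 on the plus strand, *Camk2b* at chr11:6065699-6065998 on the minus strand and *Camkk1* at chr11:73018738-73019037 on the plus strand.
*Camk2d*: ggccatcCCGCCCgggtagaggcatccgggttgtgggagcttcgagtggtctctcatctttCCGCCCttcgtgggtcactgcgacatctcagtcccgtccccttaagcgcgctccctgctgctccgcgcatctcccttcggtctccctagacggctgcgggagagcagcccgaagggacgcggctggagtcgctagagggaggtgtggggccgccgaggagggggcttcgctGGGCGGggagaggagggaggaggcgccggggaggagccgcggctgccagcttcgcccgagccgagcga
*Camk2b*: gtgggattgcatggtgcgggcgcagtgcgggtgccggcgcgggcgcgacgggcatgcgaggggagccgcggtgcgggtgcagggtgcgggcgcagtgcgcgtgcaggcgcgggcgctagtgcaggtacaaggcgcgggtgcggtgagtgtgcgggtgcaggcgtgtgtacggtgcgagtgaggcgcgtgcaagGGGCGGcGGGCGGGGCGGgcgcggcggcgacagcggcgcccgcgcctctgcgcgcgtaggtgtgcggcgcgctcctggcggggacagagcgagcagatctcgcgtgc
*Camkk1*: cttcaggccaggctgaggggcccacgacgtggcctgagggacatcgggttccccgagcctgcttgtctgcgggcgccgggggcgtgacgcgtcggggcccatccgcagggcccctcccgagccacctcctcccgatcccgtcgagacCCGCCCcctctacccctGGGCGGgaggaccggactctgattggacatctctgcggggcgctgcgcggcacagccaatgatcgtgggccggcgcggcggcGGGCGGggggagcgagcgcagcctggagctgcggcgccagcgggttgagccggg

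All 3 promoters are rich in G and C, at 70.3%, 77.3% and 75.3%, where the median of 32851 mouse promoters of the same length was 52.7%, and each holds 3 GC boxes, a motif found on either strand in 35.7% of all promoters. Promoters were read for 7 of the 10 members, and the motif counts below cover these 7 only. *Camk4* and *Camk2a* lie on chromosome 18, which was left out of the search, and none was found for *Camk2n1*. The full CREB site TGACGTCA was in none of the member promoters and in 1.79% of all, and its shorter form TGACG, which every full site also holds, was once in *Camk1* and once in *Camkk1* and in 20.8% of all promoters. The E-box CANNTG was in the windows of *Camk1*, *Camk1d* and *Camk1g* only and in 72.3% of all, and the core of MEF2 sites, CTA and TAG with 4 bases between them, was in no member window and in 3.69% of all. These are matches of letters in 300 bases and show no binding.

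Accessibility was tested within mice in the same way as RNA. Against other excitatory neurons 3 of 7 members differed, where 8.56% of all starts did: *Camk2d* was less accessible in GCs by -1.42 ± 0.20 (adjusted p = 5.3e-07), *Camk4* by -1.08 ± 0.22 (0.00043) and *Camk1d* by -0.39 ± 0.12 (0.030). The RNA of these 3 was also lower in GCs. Against GABAergic neurons 2 of 7 differed, where 3.34% of all starts did, *Camk2a* by 1.31 ± 0.29 and *Camk2d* by -1.68 ± 0.35.

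Against astrocytes 4 of 7 differed, where 31.1% of all starts did. *Camk2b* was more accessible in GCs by 2.15 ± 0.35, *Camk2a* by 1.53 ± 0.24 and *Camkk1* by 0.53 ± 0.14, and *Camk2d* less by -1.71 ± 0.25. Against oligodendrocytes 6 of 7 differed (all starts 29.6%), with *Camk2b* at 3.99 ± 0.49, *Camk2a* at 3.13 ± 0.34, *Camk1d* at 2.09 ± 0.33, *Camk4* at 1.86 ± 0.63, *Camkk1* at 1.11 ± 0.23 and *Camk2d* at -1.84 ± 0.31. Against OPCs *Camk2a* alone differed, by 2.24 ± 0.52 (all starts 4.46%), and *Camk2d*, at -1.40 ± 0.55, did not pass (adjusted p = 0.15). Against microglia 5 of 7 differed, where 24.6% of all starts did. *Camk2b* (4.68 ± 0.64), *Camk2a* (3.99 ± 0.49) and *Camkk1* (1.17 ± 0.25) were more accessible in GCs, and *Camk2d* less (-1.55 ± 0.40). Before TMM scaling *Camkk1* was at 85.0 ± 10.8 CPM of ATAC counts in WT GCs, 82.1 ± 22.4 in WT astrocytes and 92.7 ± 47.5 in WT microglia. In V321L mice *Camkk1* was at 86.4 ± 21.6, 56.8 ± 18.0 and 57.6 ± 30.5 in these classes. The start of *Camk4* had 0 counts in microglia, so no fold is given for it. The low-count rule used for RNA was not applied to accessibility. In microglia *Camk2b* was at 6.49 ± 11.8 and *Camk2a* at 3.51 ± 7.02 CPM of ATAC counts in V321L mice, both at 0 in WT mice. In oligodendrocytes *Camk2b* was at 0.80 ± 1.60 in V321L and 15.3 ± 17.4 in WT mice. In astrocytes *Camk2b* was at 5.20 ± 9.47 in V321L and 22.3 ± 9.94 in WT mice. *Camk2a* was at 6.27 ± 5.35 in V321L and 7.76 ± 13.4 in WT oligodendrocytes, and *Camk4* at 5.12 ± 4.32 and 11.6 ± 11.5 there. In OPCs *Camk2a* was at 9.99 ± 12.9 in V321L mice and at 33.5 in 1 WT mouse. The calls of these genes in these classes rest on few counts and are a description only. In each of these 6 comparisons, every member that passed for accessibility had an RNA difference of the same sign, apart from *Camk4* against microglia, where no accessibility fold is given. RNA and chromatin come from the same nuclei and classes, so the measurements share the gate.

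**Figure D2:**
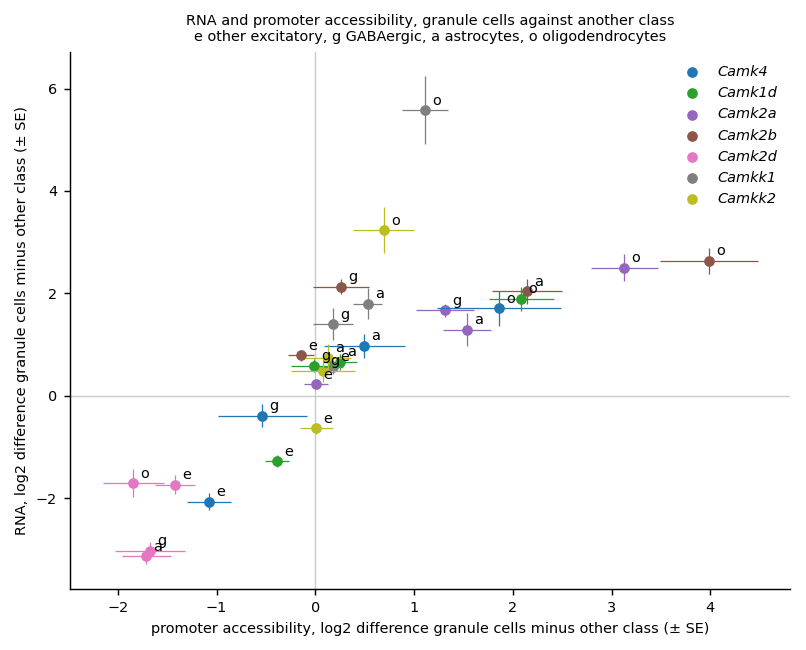
Log2 difference between GCs and another class in RNA (vertical axis) against that in promoter accessibility (horizontal axis) for 7 members; letters mark the other class and bars are ± SE. The 4 points of *Camk2d* lie below 0 on both axes (RNA -3.13 to -1.71, accessibility -1.84 to -1.42).

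The comparison of genotypes asked whether the V321L variant goes with a change of the family within a class. In GCs 9 members passed the filter on low counts, and 6 were called higher and 2 lower in V321L mice, where 38.8% of all genes were called higher and 31.1% lower. The 6 include *Camk1*, which reached the filter's limit in 0 of 4 WT and 4 of 4 V321L libraries, so its call is not used. Over the other 8 members 5 were higher and 2 lower, and the median log2 fold change was 0.37, against 0.13 over all genes. With 8 members, whether these shares depart from the 38.8% and 31.1% of all genes was not tested. Values below are CPM after TMM scaling, in the order F1, F2, M1, M2.

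*Camk4*, the nuclear kinase, fell most. It stood at 104.5, 104.3, 93.8 and 141 CPM in WT and at 47.1, 42.1, 31.6 and 37.1 CPM in V321L GCs. The lowest WT mouse was above the highest V321L mouse, and the log2 fold change was -1.50 ± 0.15 (adjusted p = 1.6e-06). *Camk1d* stood at 480, 580, 484 and 479 CPM in WT and at 291, 310, 261 and 291 CPM in V321L GCs, again without overlap (-0.81 ± 0.10, adjusted p = 1.0e-05).

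The kinase kinases rose together. *Camkk1* was at 24.9, 18.4, 32.2 and 17.7 CPM in WT and 67.5, 60.6, 34.4 and 64.8 CPM in V321L GCs, where M1 came close to the highest WT mouse (1.35 ± 0.23, adjusted p = 0.00013). *Camkk2* was at 36.6, 35.5, 37.0 and 33.6 CPM in WT and 58.6, 57.8, 62.2 and 64.5 CPM in V321L GCs, the most even of the members within a genotype (0.77 ± 0.11, adjusted p = 3.4e-05).

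*Camk1* was at 0.430, 2.78, 0 and 1.29 CPM in WT and at 8.13, 5.46, 6.16 and 9.69 CPM in V321L GCs. The groups did not overlap, but *Camk1* passed the filter on low counts only through the V321L mice and had 12 UMIs in WT GCs, so it is described and not tested. The free RNA held more *Camk1* than GCs did, at 14.2 CPM in WT and 29.4 CPM in V321L libraries. *Camk1g*, with 4 UMIs in WT and 3 in V321L GCs, was not tested.

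The synaptic CaMKII genes rose by less than the kinase kinases with TMM scaling, and by 0.81 ± 0.13 (*Camk2a*) and 0.80 ± 0.18 (*Camk2b*) with library sizes. Before TMM scaling their means went from 492 to 855 CPM and from 311 to 535 CPM. The kinase kinases rose by more there too, *Camkk1* from 20.2 to 66.0 CPM and *Camkk2* from 30.4 to 70.3 CPM. *Camk2a* was at 513, 541, 699 and 536 CPM in WT and 739, 785, 676 and 751 CPM in V321L GCs, and WT M1 lay within the V321L range (0.37 ± 0.12, adjusted p = 0.011). The call was lost without WT F1 (0.28, adjusted p = 0.090) or WT M2 (0.29, adjusted p = 0.081). *Camk2b* was at 327, 296, 498 and 315 CPM in WT and 472, 425, 425 and 526 CPM in V321L GCs, also overlapping through WT M1. Its log2 fold change of 0.37 ± 0.15 (adjusted p = 0.040) was lost without WT F1, F2 or M2 or V321L F1 or M2 (0.25 to 0.37), by DESeq2 (0.29, adjusted p = 0.10) and in nuclei under 0.5% of mitochondrial UMIs (0.23, adjusted p = 0.13).

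*Camk2d* was at 22.8, 26.8, 23.7 and 25.0 CPM in WT and 21.9, 19.2, 12.04 and 21.7 CPM in V321L GCs. These did not overlap, yet the difference did not pass the test (-0.40 ± 0.19, adjusted p = 0.073), and it passed by DESeq2 (-0.50, adjusted p = 0.045) and without WT M1 (-0.48, adjusted p = 0.048). *Camk2n1* was at 125, 114, 125 and 140 CPM in WT and 263, 159, 144 and 258 CPM in V321L GCs, all V321L mice above all WT mice (0.71 ± 0.18, adjusted p = 0.0031). The free RNA went the other way, with *Camk2n1* at 1614 CPM in WT and 818 CPM in V321L libraries, and after its subtraction the difference was 2.27 (adjusted p = 0.00052). The subtraction sets negative counts to 0. In WT M1 the free share of 11.3%, with *Camk2n1* at 1292 CPM in free RNA, came to more than the level of *Camk2n1* in GCs. The size of 2.27 therefore rests partly on a WT value set to 0. No member differed between the sexes in its genotype effect, and over all genes 0 passed this test by edgeR and 378 had an unadjusted p under 0.05, with 2 mice per sex and genotype. At the gene starts 0 of 7 members differed between genotypes in GCs, where 0.0158% of all starts did, with log2 differences from -0.19 ± 0.11 (*Camk2b*) to 0.31 ± 0.28 (*Camk2d*).

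**Figure D3:**
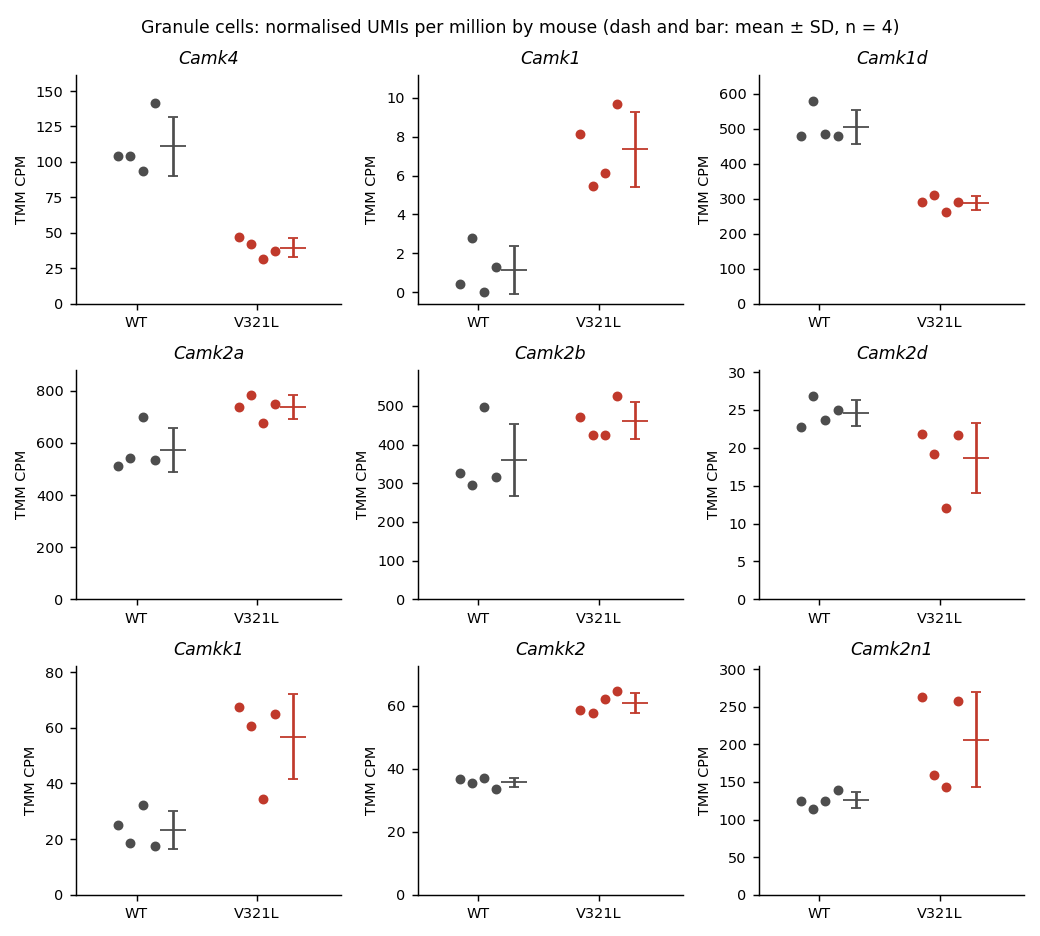
CPM after TMM scaling in GCs for the 9 members that passed the filter on low counts. Points are mice in the order F1, F2, M1, M2, and the dash and bar give mean ± SD of 4 mice. WT and V321L mice do not overlap for 7 members, where 61.5% of all tested genes do not overlap, and overlap through WT M1 for *Camk2a* and *Camk2b*. The 7 include *Camk1*, which passed the filter only through the V321L mice.

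The fold changes followed the length of the genes. Over 11241 of the 11845 tested genes, those with a span in RefSeq (94.9%), Spearman's rho between the genomic span from first to last exon and the V321L log2 fold change in GCs was -0.717; this is a description across genes, which are not independent. The median fell from 1.78 for genes under 10 kb to 0.57 for 10 to 30 kb, -0.20 for 30 to 100 kb, -0.71 for 100 to 300 kb and -1.08 for 300 kb or more. The 3 members with a log2 fold change below 0 are the longest, *Camk4* with 261 kb, *Camk2d* with 251 kb and *Camk1d* with 421 kb, while *Camkk1* spans 26.0 kb and *Camk1* 9.80 kb. Among the 3 longest members the fold did not follow the span. Among the shorter ones it fell from *Camkk1* (1.35) to *Camkk2* (61.1 kb, 0.77), *Camk2a* (62.8 kb, 0.37) and *Camk2b* (96.7 kb, 0.37). *Camk2n1*, at 0.71, did not keep to this order. *Camk4* lay below and *Camk1d* above the median of its span class, and *Camk2n1*, at 4.98 kb, lay under the median of short genes.

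**Figure D4:**
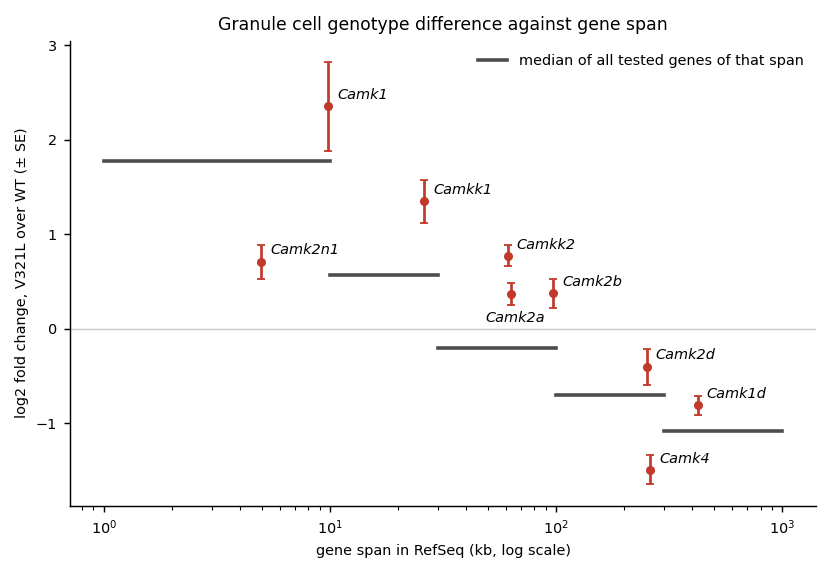
Log2 fold change (V321L over WT, ± SE) in GCs against the genomic span of each tested member on a log axis; grey lines are medians of all tested genes in 5 classes of span, the outer 2 classes being open-ended. Members above 200 kb lie below 0 and members under 100 kb above 0, among them *Camk1*, whose call is not used.

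A fit in which the trend with span was removed from each library was added after seeing the data. *Camk4* was then lower by -0.65 ± 0.15 (adjusted p = 0.0020), and *Camkk2* (1.01), *Camkk1* (1.07), *Camk2b* (0.83), and *Camk2a* (0.63) remained higher. *Camk1d* turned to 0.22 (adjusted p = 0.043) and *Camk2n1* to -0.96 (adjusted p = 1.5e-05), so that the direction of these 2 genes depends on whether short and long genes are compared on 1 scale. With plain library sizes in place of TMM the median of all genes moved from 0.13 to 0.59, and 6437 genes were called higher and 1994 lower in place of 4591 and 3678. On that scale *Camk4* (-1.04) and *Camk1d* (-0.36) were still lower, and *Camk2d* stood at 0.06. What sets the trend with span was not tested; the depth and the mitochondrial share given above differ between the same groups.

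**Figure D5:**
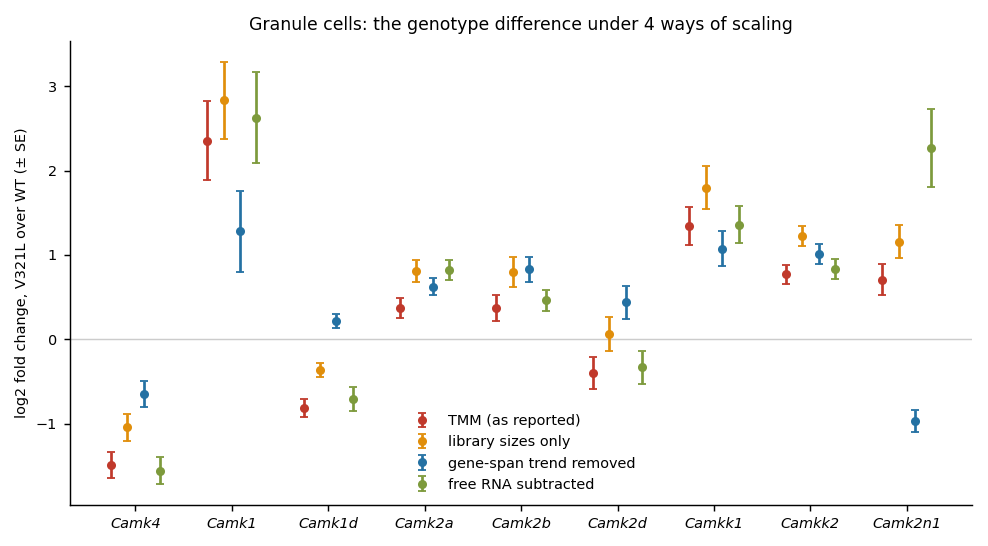
Log2 fold change (V321L over WT, ± SE) in GCs for 9 members with TMM, library sizes only, the trend with gene span removed and free RNA subtracted. *Camk4* is below 0 and *Camkk1*, *Camkk2*, *Camk2a* and *Camk2b* are above 0 under all 4, while *Camk1d*, *Camk2d* and *Camk2n1* change side. *Camk1* is drawn but not used, since it passed the filter on low counts only through the V321L mice.

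In other excitatory neurons 3 of 8 tested members were higher and 2 lower, where 26.6% of all genes were higher and 23.7% lower. Without *Camkk1*, which reached the filter's limit in 1 of 4 WT and 4 of 4 V321L libraries, 2 of 7 were higher and 2 lower. *Camk1d* was at 1424, 1799, 1387 and 1524 CPM in WT and 692, 475, 474 and 703 CPM in V321L mice, without overlap (-1.39 ± 0.19, adjusted p = 0.00014). *Camk4* was at 345, 407, 375 and 363 CPM in WT and 197, 183, 299 and 186 CPM in V321L mice, V321L M1 being nearest to WT (-0.78 ± 0.18, adjusted p = 0.0039). The call of *Camk4* was lost with library sizes (-0.36, adjusted p = 0.094), with the span trend removed (-0.15, adjusted p = 0.46) and in nuclei thinned to 1000 UMIs (-0.11, adjusted p = 0.76), and *Camk4* turned to 0.25 (adjusted p = 0.49) when nuclei were gated after thinning. *Camk1d* lost its call with the span trend removed (-0.58, adjusted p = 0.067).

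*Camkk2* rose there, from 52.0, 37.5, 63.0 and 55.5 CPM to 110, 98.6, 91.8 and 107 CPM (0.99 ± 0.20, adjusted p = 0.0016), and *Camkk1* was at 26.0, 10.5, 12.6 and 9.56 CPM in WT and 47.7, 39.7, 25.2 and 46.6 CPM in V321L mice, with V321L M1 just below WT F1. *Camk2a* rose by 0.53 ± 0.20 (adjusted p = 0.043), a call lost without 6 of the 8 mice (WT F1, F2 or M2, V321L F1, F2 or M2, 0.42 to 0.57). *Camkk2* was thus higher in V321L mice without overlap in both excitatory classes. The genotypes did not overlap for *Camkk1* in GCs, but they did in other excitatory neurons, where its call is not used. Among all genes tested in GCs, 61.5% had no overlap either.

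In GABAergic neurons 2 of 6 tested members were called higher and 0 lower, where 16.8% and 12.3% of all genes were. Both, *Camk2b* and *Camk2n1*, reached the filter's limit in 1 of 4 WT and 4 of 4 V321L libraries, so these calls are not used, and 0 of the other 4 members passed. *Camk2b* was at 69.7, 53.9, 142 and 58.9 CPM in WT and 145, 138, 120 and 285 CPM in V321L mice. *Camk2n1* was at 59.7, 27.0, 122 and 44.1 CPM in WT and 180, 102, 79.9 and 218 CPM in V321L mice. Both overlapped between genotypes through WT M1, and with the span trend removed *Camk2n1* turned from 1.39 to -0.65 (adjusted p = 0.27). *Camk4* did not pass here. It was at 49.8, 207, 40.7 and 88.3 CPM in WT and 139, 131, 60.0 and 134 CPM in V321L mice (0.15 ± 0.41, adjusted p = 0.81).

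In astrocytes 2 of 5 tested members were lower and 0 higher, where 20.1% of all genes were lower and 26.1% higher. *Camk2a* was at 470, 303, 1105 and 503 CPM in WT and 246, 82.6, 157 and 328 CPM in V321L mice (-1.45 ± 0.43, adjusted p = 0.014). The free RNA of these libraries moved with it, *Camk2a* being at 2799 CPM in WT and 805 CPM in V321L libraries, and after its subtraction *Camk2a* was too low in astrocytes to be tested. *Camk1d* was lower by -1.05 ± 0.26 (adjusted p = 0.0044), without overlap, and stood at 0.97 (adjusted p = 0.20) after the subtraction, its free RNA being at 975 CPM in WT and 153 CPM in V321L libraries. Both calls were also lost when nuclei were gated after thinning to 1000 UMIs, with *Camk2a* at -0.75 and *Camk1d* at -0.74.

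In oligodendrocytes, with 3 WT and 4 V321L mice, 1 of 4 was lower and 0 higher, where 12% of all genes were lower and 22.3% higher. This was again *Camk2a*, at 235, 228 and 354 CPM in WT and 151, 94.3, 90.5 and 180 CPM in V321L mice (-1.14 ± 0.35, adjusted p = 0.022), lost without WT M2 or V321L F2 or M1 (-0.96 to -0.91), lost with doublets kept (-0.18), and likewise too low to be tested after the subtraction.

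Whether the genotype effect differed between GCs and another class was tested as a term of its own, and the 4 comparisons share the GC samples. Against other excitatory neurons 0 of 9 members differed, where 1.11% of all genes did, and with 1 mouse left out *Camk1d* passed without V321L F1, M1 or M2 (0.83, 0.69 and 0.84). Against GABAergic neurons *Camk4* differed, the only one of 9 (all genes 0.659%): its change in GCs was lower than that in GABAergic neurons by -1.40 ± 0.35 (adjusted p = 0.028). The call did not hold without V321L F1 (-1.34), F2 (-1.32) or M2 (-1.27). *Camk2a* differed against astrocytes, by 2.06 ± 0.34 (adjusted p = 0.00032; 1 of 9 members, all genes 4.44%), without each of the 8 mice in turn as well, and against oligodendrocytes, by 1.72 ± 0.43 (adjusted p = 0.011; 1 of 9 members, all genes 1.31%), a call lost without WT M2 (1.31) or V321L M1 (1.62). In both, *Camk2a* was higher in V321L GCs and lower in V321L glia, in the classes where free RNA made up the larger share. Against astrocytes 1 further member passed when a mouse was left out, *Camk2b* without WT F1 (1.24) and *Camk2n1* without WT F2 (1.04) or V321L F2 (0.95).

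GCs were also split by genes that the study uses to describe them. *Penk* and *Sorcs3* are its markers of semilunar granule cells, and *Ntng1* is its marker of late maturation. GCs with at least 2 UMIs of *Sorcs3* held more *Camk2d* than GCs without one, 57.8 ± 25.1 against 19.1 ± 3.07 CPM (SD, n = 8 mice), in 8 of 8 mice (1.37 ± 0.24, adjusted p = 2.5e-07). The lowest *Sorcs3*-positive value, 32.4 CPM, was above the highest of the negative GCs, 22.0 CPM. The positive values rest on 4 to 13 UMIs of *Camk2d* per mouse, 6 of them behind the 32.4 CPM of V321L M1. They come from 19 to 75 *Sorcs3*-positive GCs per mouse. *Camk2a* (-0.34 ± 0.09) and *Camk2b* (-0.32 ± 0.10) were lower there, each in 8 of 8 mice, so 3 of 8 members differed where 12.8% of all genes did; *Camk2b* lost its call without V321L F2 (-0.27, adjusted p = 0.080). In nuclei thinned to 1000 UMIs 0 of them passed and *Camk2d* had too few UMIs to be tested, and since a nucleus with more UMIs is more likely to show one of *Sorcs3*, the part of depth in these differences was not tested further.

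GCs with a *Ntng1* UMI held less *Camk4*, 61.6 ± 25.9 against 87.8 ± 37.7 CPM, in 7 of 8 mice (-0.46 ± 0.10, adjusted p = 0.00051). The study itself uses *Camk4* as a marker of early GC maturation and describes gradients of *Camk4* and *Ntng1* that oppose each other. After thinning *Camk4* was still lower (-0.48, adjusted p = 0.026), and so was *Camk2b* (-0.19, adjusted p = 0.042), while *Camk1d* (0.17) and *Camk2a* (-0.13) were called only before thinning; with all UMIs 4 of 8 members differed, where 4.67% of all genes did. Without V321L F1 or F2 the calls of *Camk1d* (0.16 and 0.14) and *Camk2a* were lost, and that of *Camk2a* also without WT F1 or M2 (-0.13 to -0.11). GCs with a *Penk* UMI held less *Camk4* (-0.87 ± 0.26, adjusted p = 0.023), *Camk2a* (-0.58 ± 0.18, adjusted p = 0.035) and *Camk2b* (-0.59 ± 0.18, adjusted p = 0.033), 3 of 8 members where 5.05% of all genes differed. In this order they were lower in 7, 6 and 7 of 8 mice, with 0 to 5 UMIs of *Camk4* per WT mouse. These rest on 7 to 82 *Penk*-positive GCs per mouse, 0 of them passed after thinning, all were lost without V321L F2 (-0.68, -0.54 and -0.54), *Camk4* also without V321L F1 (-0.78), *Camk2a* and *Camk2b* without WT F1 (-0.62 and -0.57) and *Camk2b* without V321L M1 (-0.44).

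Other genes of the pathway were taken from 6 lists of 47 genes. In GCs 42 were tested, 18 were higher and 17 lower, where 38.8% of all genes were higher and 31.1% lower. The 3 calmodulin genes were all higher, *Calm3* by 2.75 ± 0.34, and every calmodulin gene that could be tested was higher in each of the 5 classes. Of all genes 26.6% were called higher in other excitatory neurons, 16.8% in GABAergic neurons, 26.1% in astrocytes and 22.3% in oligodendrocytes. Of the other CaM-dependent kinases and their relatives 4 of 8 were higher and 3 lower, from *Pnck*, a kinase of the CaMKI group, at 2.59 ± 0.36 to *Cask*, a synaptic scaffold with a CaM kinase-like domain, at -1.01 ± 0.12. Of the calmodulin-binding buffers 2 of 3 were higher, *Nrgn*, which encodes neurogranin, by 2.61 ± 0.27.

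Calcineurin, the phosphatase that calmodulin also opens, had 2 of 7 genes higher and 2 lower, *Rcan3*, a regulator, at 1.06 ± 0.29 and *Ppp3cb*, a catalytic subunit, at -0.89 ± 0.12. The phosphatases that act on CaM kinases had 2 of 4 higher, *Ppp1ca* by 3.09 ± 0.40, and 2 lower, *Ppm1e* by -0.57 ± 0.11. Of the 17 targets of the cascade 5 were higher, *Crtc2*, a CREB coactivator, most (1.57 ± 0.35), and 10 lower, *Mef2a*, a transcription factor, most (-1.24 ± 0.13). With the trend with span removed the calmodulin genes were still higher (3 of 3, *Calm3* 1.57), the targets came to 6 higher and 6 lower, *Mef2a* was at -0.60 and *Cask* at -0.07 (adjusted p = 0.57), and *Ppm1e* at 0.02 (adjusted p = 0.86). In that fit the other kinases and relatives came to 5 higher and 1 lower, and the buffers to 2 higher and 1 lower. Calcineurin and its regulators came to 3 higher and 1 lower, and the phosphatases to 1 higher and 1 lower. With library sizes the targets were 7 higher and 7 lower.

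For each member the genes with the most similar profile over the mean log2(CPM + 1) of 7 classes in WT mice were sought among 12235 genes; OPCs and microglia hold 1 and 2 WT mice. *Camk2a* was nearest to *Nrgn* (Pearson's r = 0.993) and *Lmo7* (0.987), *Camk4* to *Cdh11* (0.990) and *Nap1l1* (0.986), and *Camkk1* to *Asphd2* (0.9995) and *Cisd1* (0.997). *Camk2d* was nearest to *Gab2* (0.956) and *Gsk3b* (0.950), *Camk2b* to *Ano3* (0.983) and *Prkce* (0.974), and *Camk1d* to *Chka* (0.984) and *Gm13830* (0.974). For *Camk1* the nearest were *Htr2a* (0.929) and *Limk1* (0.914), for *Camk1g* *Clrn1* (0.983) and *Mpped1* (0.980), itself a marker of the gate, for *Camkk2* *Gm14399* (0.995) and *Gnb5* (0.992), and for *Camk2n1* *Garem1* (0.977) and *Tle1* (0.965). With 7 points that share libraries and free RNA, values this high describe the ranking and carry no test.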

How the data were processed

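RNA and accessible chromatin of DG nuclei were measured in 4 WT and 4 V321L mice, with 1 Multiome library per mouse. The authors made the matrices with Cell Ranger and named mm10 in their processing notes. As deposited by the authors, each value is a raw count, of UMIs per gene or of ATAC events per peak, for all barcodes and with peaks called separately in each library. Nuclei had at least 500 UMIs, 250 genes and 500 ATAC counts and lay under the upper limits of the study's methods, and barcodes whose Scrublet score exceeded their library's mean by over 2 SD were removed as doublets, in scanpy 1.11.5 (49 to 162 per library). Between 1 and 12 barcodes were shared by any pair of libraries.

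A nucleus was gated to the class that led in both the number of markers (at least 2) and marker UMIs (at least 2); 27.0% stayed ungated. The gate was settled after marker levels, but not CaM kinase levels, had been seen. The family, the pathway lists and the tests were chosen with earlier results of these data known. All members were named, the 2 most similar genes of each, and the largest called rise and fall of each pathway list. Clusters for the check of the gate came from leidenalg 0.10.2.

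Counts were summed per mouse and class, for mice with at least 20 nuclei of the class, and tested over all genes in R 4.3.3 by edgeR 4.0.16 (quasi-likelihood, TMM, filterByExpr), calling adjusted p (Benjamini-Hochberg) under 0.05. In the genotype and class comparisons a member's call is not used where under 0.5 of the libraries of the group with the lower level reached the filter's limit (a count of 10 at the median library size) and that group alone would not pass, a rule chosen after seeing the data. Class comparisons and splits had mouse as a block; the study's tests per nucleus were not used. Accessibility summed peaks within 1 kb of a start, and the rule on low counts was not applied to it. DESeq2 1.42.0, thinning to 1000 UMIs, subtraction of free RNA, other scalings and filters and leaving out each mouse were alternatives. Tested on simulated data with 200 genes changed by 1 on the log2 scale, the genotype fit in GCs recovered 57.3% of them over 10453 genes, and 7.32% of its calls were unchanged genes. The simulation assumed a dispersion of 0.05 and held no trend with gene span and no difference in free RNA between genotypes. The measured GCs gave 8269 calls among 11845 genes, so neither share is an error rate of the calls reported here. WT libraries were shallower, so their low counts are less certain. GC sums of any 2 mice of a genotype differed by 2.70 to 10.6 times the sampling noise (chi-square per degree of freedom), so no library was counted as a repeat.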

Additional observations from a re-analysis of the deposited data

Results flagged for a closer look

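In 83 groups of 4 mice with at least 20 UMIs of a member, 6 had a mouse that stood apart from the other 3 by more than Dixon's limit, where chance flags about 1 in 20 groups. They were *Camk4* in other excitatory neurons of V321L M1 (315 CPM) and in GABAergic neurons of V321L M1 (48.7 CPM), *Camk1d* (584 CPM) and *Camk2a* (367 CPM) in GABAergic neurons of WT M1, *Camk2b* in GABAergic neurons of V321L M2 (228 CPM), and *Camk2d* in astrocytes of V321L F1 (212 CPM). WT M1 held the fewest UMIs of all libraries.

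Of the genotype effects, 3 differed between GCs and another class by the test of the difference itself. They were *Camk4* against GABAergic neurons (-1.40), *Camk2a* against astrocytes (2.06) and *Camk2a* against oligodendrocytes (1.72).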

How the results depend on the processing

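Of 1603 values recomputed for the members, 1409 kept their direction and their side of the threshold or, if never called, moved by at most 1 SE, 57 never called moved by more, 91 lost and 38 gained a call, and 8 turned. The trend with gene span, removed in a fit added after seeing the data, turned *Camk1d* (0.22) and *Camk2n1* (-0.96) in GCs and *Camk2n1* in other excitatory neurons (-1.32), GABAergic neurons (-0.65), astrocytes (-2.12) and oligodendrocytes (-1.78). Gating after thinning to 1000 UMIs, also added after seeing the data, turned *Camk4* in other excitatory neurons (0.25), and subtraction of free RNA turned *Camk1d* in astrocytes (0.97). The cause was not tested for any of these.

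The counts of members from here on hold every call, also those not used above, such as that of *Camk1* in GCs. The number of members called in GCs was 8 under 10 of the 13 other settings, 7 under both ways of thinning and 9 with doublets kept. In other excitatory neurons 5 became 3 when gated after thinning. In GABAergic neurons 2 became 0 after thinning, and 1 with doublets kept, gated after thinning or with the span trend removed. In astrocytes 2 became 4 without the filter on low counts, 1 after thinning, and 0 with free RNA subtracted or gated after thinning. In oligodendrocytes 1 became 0 without the filter, with doublets kept, without the ATAC minimum or with free RNA subtracted, and 2 with classes from clusters or the span trend removed. Against astrocytes 7 became 3 in WT mice only. After thinning 0 were called in the splits by *Penk* and *Sorcs3* and 2 in that by *Ntng1*.

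With 1 mouse left out the number of members called ran from 6 to 9 in GCs, 0 to 3 in GABAergic neurons and 0 to 1 in oligodendrocytes. It ran from 0 to 1 for the genotype effect of GCs against other excitatory neurons, against GABAergic neurons and against oligodendrocytes, from 1 to 2 against astrocytes, from 0 to 3 for *Penk* and from 2 to 4 for *Ntng1*.

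The labels give both genotypes the numbers F1, F2, M1 and M2, but the deviations of GCs of same-numbered mice correlated at 0.06, 0.27, -0.11 and 0.02, and only WT F2 matched its own number best. These values gave no ground to pair the mice by number, though they cannot show that same-numbered mice were prepared apart. With the replicate block 8 members were called in GCs, 4 in other excitatory neurons (*Camk2a* lost, adjusted p = 0.088), 3 in GABAergic neurons, 2 in astrocytes and 0 in oligodendrocytes (*Camk2a* -0.97, adjusted p = 0.075).

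Over all genes the calls in GCs fell from 8269 to 5510 after thinning and 4491 when gated after it, in other excitatory neurons from 3704 to 789, 246 and, with the span trend removed, 2145. In GABAergic neurons 894 became 1751 without the filter, 68 and 97 after thinning, 1367 with clusters and 484 with the span trend removed. In astrocytes 1755 became 3487 without the filter, 673 and 601 after thinning and 996 with free RNA subtracted, and in oligodendrocytes 1002 became 1543, 579 with free RNA subtracted and 472 with the span trend removed. GCs against other classes gave 1566 (of 3353), 1306 (of 2888) and 2251 (of 3605) calls after thinning for other excitatory neurons, GABAergic neurons and astrocytes, and 1856, 2196 and 1740 (of 4281, oligodendrocytes) in WT mice. The splits gave 5 (of 391), 284 (of 952) and 219 (of 437) after thinning. With 1 mouse left out, calls fell to 637 in oligodendrocytes (without V321L F1), and for the genotype effect of GCs against other classes ran from 6 (without V321L F2) to 208 (without V321L F1; 113 with all) for other excitatory neurons, up to 196 (without WT M2; 62 with all) for GABAergic neurons, and down to 260 (without WT M2; 448 with all) for astrocytes and 61 (without WT F2; 155 with all) for oligodendrocytes. Gene starts called went from 2 to 4 without WT F2 or V321L M1. Oligodendrocytes thinned or under 0.5% mitochondrial UMIs, GABAergic neurons and astrocytes under 0.5%, WT mice only for OPCs and microglia, and thinned microglia were not run, for too few mice with 20 nuclei.

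Depth limits *Camk1* (12 UMIs in WT GCs), *Camk1g* (4 and 3 in WT and V321L GCs) and *Camkk1* in oligodendrocytes (1 UMI in V321L mice) most. Intervals from counts cover counting error only.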

Other observations

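The members differed in how their CPM in free RNA (barcodes with at most 100 UMIs, mean of 4 libraries) compared with their CPM in GCs, before TMM scaling. In WT libraries *Camk1* was 15.9 times, *Camk2n1* 15 times, *Camk1g* 9.93 times and *Camk2a* 5.69 times as high as in GCs, *Camk1d*, *Camk2b*, *Camk2d* and *Camkk2* between 2.26 and 2.43 times, and *Camkk1* 1.81 times. *Camk4* stood at 0.927 times its GC level. In V321L libraries *Camk1g* was 18.3 times, *Camk1* 3.44 times, *Camk2n1* 3.43 times and *Camkk1* 1.04 times as high, and *Camk2a* (0.942), *Camkk2* (0.811), *Camk2b* (0.724), *Camk4* (0.661), *Camk2d* (0.597) and *Camk1d* (0.459) lay below their GC level. The ratios of *Camk1* and *Camk1g* rest on 12 and 4 UMIs in WT GCs, and that of *Camk1g* on 3 in V321L GCs.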
